A study of Mus musculus with 78 samples.

Results

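Collagens are secreted proteins whose chains wind into triple helices and give the artery wall its tensile strength. The collagen genes of mouse cerebral arteries were taken as the protein-coding rows of the FPKM table whose symbol had the form Col, a type number, a and a chain number, and 44 of 54532 rows met it. FPKM counts sequenced fragments per kilobase of gene, scaled to the depth of the library. Of the 44 genes, 31 reached at least 1 FPKM in at least 3 libraries and are described here, among 15707 genes of the table that did. By class, 8 of 11 fibrillar genes, 7 of 8 basement membrane genes and 16 of 25 genes of other types passed.

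All libraries came from cerebral arteries of male wild-type C57Bl6 mice. For 3 months the mice had free access to food (AL, ad libitum) or were kept on intermittent fasting (IF). The surgery that followed was a sham operation or stenosis of both carotid arteries (BCAS), a model of chronically low blood flow to the brain. Arteries were taken on day 1, 7, 14, 21 or 30 after surgery, which gave 20 groups with 4 libraries each, except 3 for BCAS AL on day 1 and for sham IF on day 7. The sham AL and BCAS IF arms had 20 libraries each, and the sham IF and BCAS AL arms 19 each. No label used here gives the fasting schedule or the age of the mice. Nothing stated that the libraries came from separate animals, so p-values measure only the spread between these libraries, which may be technical. In whole arteries, fewer cells of a type and less RNA per cell cannot be told apart.

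Fibrillar collagens form the rope-like fibrils of the adventitia and media, with types I and III as the main ones and type V as a regulator of fibril width. Type IV collagen instead forms sheet-like networks in the basement membranes beneath endothelium and around smooth muscle, where its main chains Col4a1 and Col4a2 assemble together. Mutations of these chains cause cerebral small vessel disease and brain haemorrhage in humans and mice. The remaining types bind to fibrils, span the cell membrane or form microfibrils and short-chain networks.

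Col4a1 and Col4a2 lie head to head on chromosome 8 and are transcribed away from each other from a shared promoter region. On GRCm38, Col4a1 spans chr8:11198423-11312826 on the minus strand and Col4a2 chr8:11312805-11449287 on the plus strand, so the genes overlap by 22 bases at their starts. The windows from 250 bases before to 50 bases after each start, from RefSeq (GRCm38.p6), are shown because these chains moved together in the libraries. Col4a1 is at chr8:11312777-11313076 (minus strand) and Col4a2 at chr8:11312555-11312854 (plus strand), each written 5′ to 3′ on its own strand. Capitals mark the 78 bases, chr8:11312777-11312854, that both windows hold, as reverse complements of each other.
Col4a1: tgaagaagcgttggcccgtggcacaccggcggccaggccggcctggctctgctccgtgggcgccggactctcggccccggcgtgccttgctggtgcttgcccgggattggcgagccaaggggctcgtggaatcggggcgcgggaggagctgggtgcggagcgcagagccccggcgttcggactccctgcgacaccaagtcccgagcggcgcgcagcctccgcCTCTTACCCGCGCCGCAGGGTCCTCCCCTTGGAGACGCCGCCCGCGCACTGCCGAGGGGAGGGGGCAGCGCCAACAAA
Col4a2: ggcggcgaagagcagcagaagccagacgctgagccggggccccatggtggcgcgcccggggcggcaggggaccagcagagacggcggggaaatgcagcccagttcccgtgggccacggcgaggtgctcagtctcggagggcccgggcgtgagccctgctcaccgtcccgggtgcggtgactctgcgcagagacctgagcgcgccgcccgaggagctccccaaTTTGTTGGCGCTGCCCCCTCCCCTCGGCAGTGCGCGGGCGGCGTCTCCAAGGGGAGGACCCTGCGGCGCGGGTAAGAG

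RefSeq windows of the same length, 27 in all, were found for 25 of the 31 genes. A gene counted if any of its windows held the letters, while the share for all genes is per window. The GC box letters GGGCGG, read on both strands, were in 18 of these 25 genes (72%), against 35.7% of 32851 promoter windows of all genes. CCAAT was in 8 genes (32%), against 37.4% of all windows, and TATAAA in 3 genes (12%), against 13.6%. The Col4a1 window held 1 GC box and 1 CCAAT, the Col4a2 window 3 GC boxes and 1 CCAAT, and neither held TATAAA. The GC box of the Col4a1 window lies in the shared bases, so the same site is 1 of the 3 of Col4a2. Such matches describe the letters in these windows and do not show that a factor binds there.

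Collagen RNA was spread almost evenly over the classes. Summed over the 44 genes, it lay between 593 and 760 FPKM per library (median 656.3). The median share was 32.5% for fibrillar genes, 34.0% for basement membrane genes and 33.6% for the others. The 9 most abundant genes made up 79.3% of the sum at the median. FPKM divides by the gene length of the table, so levels, shares and ratios between genes depend on these lengths. They were 12426 bases for Col1a2 and 6563 for Col1a1, and 8326 for Col6a2 and 4380 for Col6a1. Col6a2 had more fragments than Col6a1 (median 5769 against 4659) but a lower FPKM.

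Among fibrillar genes, the type I chains led. Over the 78 libraries, Col1a2 had a mean of 77.2 FPKM (SD 6.71), the highest of all collagens, and Col1a1 62.4 FPKM (SD 9.96). Col3a1, whose loss in humans weakens artery walls, followed at 47.2 FPKM (SD 7.67). The type V chains Col5a1 (14.1 FPKM) and Col5a2 (9.94 FPKM) were lower, and Col5a3, the third chain of that type, was at 1.38 FPKM. Col11a2 (1.80 FPKM) and Col27a1 (1.22 FPKM), best known from cartilage, were close to the minimum.

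Among basement membrane genes, Col4a2 and Col4a1 stood at nearly the same level, 68.3 FPKM (SD 9.88) and 68.0 FPKM (SD 10.9). Col18a1, which encodes a heparan sulfate proteoglycan and the precursor of endostatin, was next at 62.1 FPKM (SD 7.95). On the plus strand of its locus the transporter gene Slc19a1 overlaps it by 8825 bases, and use of strand in the counting was not given in the sources used here. The X-linked chains Col4a5 (14.6 FPKM) and Col4a6 (5.45 FPKM), also neighbours of opposite strand, were lower. Col15a1, the relative of Col18a1, was at 2.96 FPKM, and Col4a4 at 0.779 FPKM.

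Of the other types, Col6a1 (54.8 FPKM) and Col6a2 (35.0 FPKM), chains of beaded microfibrils, were the most abundant beside Col9a2. The third chain of the main type VI trimer, Col6a3, was at 4.20 FPKM, a median of 0.0757 of Col6a1. Col9a2, a fibril-associated chain named from cartilage, had 47.9 FPKM (SD 7.31), while its partner chains Col9a1 and Col9a3 were at 0.0493 and 0.514 FPKM and did not pass. Of cartilage and bone markers, Comp (median 11.3 FPKM) and Sp7 (2.66 FPKM) were at 1 FPKM or more in all 78 libraries. Sox9 reached 1 FPKM in 77 libraries, Bglap in 25 and Matn3 in 5. Acan, Matn1, Ihh and Ibsp, 4 of the 9 listed, stayed under 1 FPKM in all 78 libraries, and Acan reached at most 0.463 FPKM. The short-chain genes Col8a1 and Col8a2, known in vascular wall and cornea, had 17.4 and 13.1 FPKM. The fibril-associated Col16a1 (12.6 FPKM) and the transmembrane Col13a1 (11.7 FPKM) and Col23a1 (10.6 FPKM) followed. The remaining members of this class lay between 0.643 FPKM (Col6a6) and 4.05 FPKM (Col12a1).

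Just inside the minimum were Col6a6, with 3 libraries at 1 FPKM or more, and Col4a4 and Col22a1, with 10 libraries each. Just outside were Col11a1 and Col4a3, with 1 library each (highest 1.14 and 1.31 FPKM). The other 11 genes left out, among them the cartilage gene Col2a1 (mean 0.0504 FPKM), had none. For Col6a6, 1 FPKM stood for 138.6 to 245.8 fragments, and its libraries held from 38 to 215 fragments of it (median 112).

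**Figure D1:**
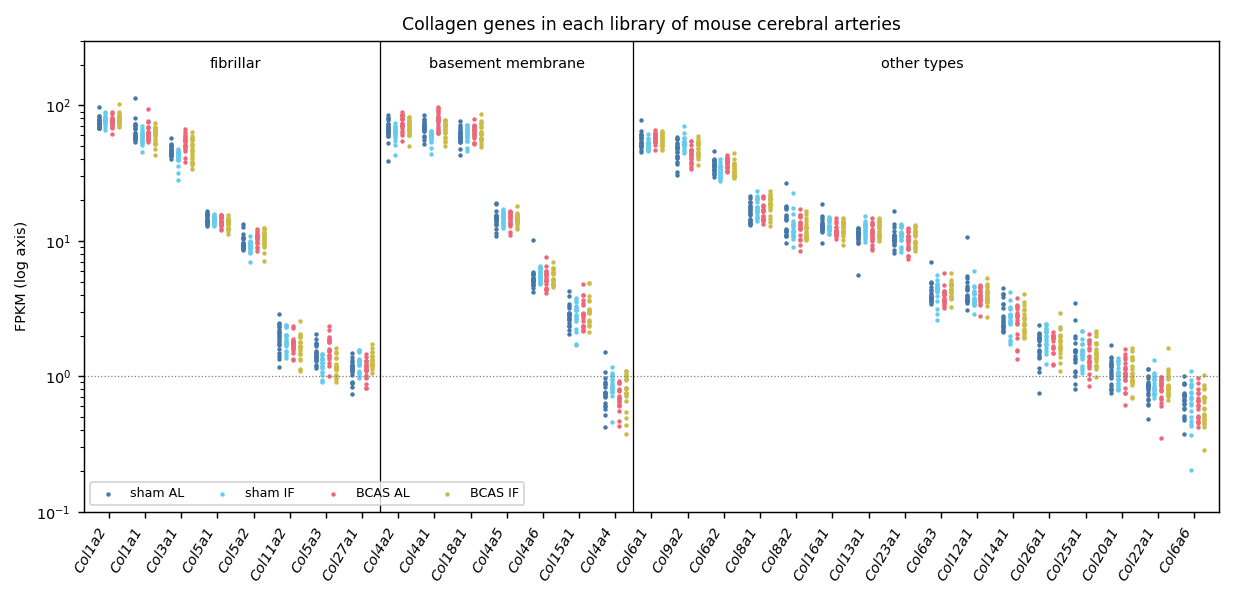
Level of each of the 31 collagen genes (FPKM, log axis) in the 78 libraries, grouped by class and coloured by arm; each point is a library. The levels run from Col1a2 (mean 77.2 FPKM) to Col6a6 (0.643 FPKM), and the ranges of the arms overlap for every gene.

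Depth ran from 14601572 to 25944175 fragments per library. All 7 smooth muscle, 7 endothelial and 8 fibroblast markers were at 1 FPKM or more in all 78 libraries. Sham AL day 7 replicate 4 stood apart: it was the highest of all libraries for 13 and the lowest for 3 of the 31 collagen genes. Its 7 smooth muscle markers summed to 3277 FPKM, against at least 5083 FPKM elsewhere. With sham AL day 7 replicate 2 and BCAS AL day 1 replicate 2 it formed the 3 libraries with the most reads on genes under 300 bases, at 0.279% to 0.322%, against at most 0.106% in the others. The summed pituitary markers ranged from 2.27 to 5614 FPKM between libraries. These 3 libraries were left out together as an alternative.

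The effect of stenosis was taken against sham mice on the same diet, as the mean of the 5 daily differences. This called 1 of 31 collagen genes under each diet, Col4a1, which was higher after BCAS. In limma 0 of 8 fibrillar and 0 of 16 other genes passed, with 1 of each at an unadjusted p under 0.05 under AL, and 4 and 2 under IF, and limma-voom called 1 collagen in all under each diet. Among all genes tested, 0.987% passed under AL and 0.758% under IF, so 1 gene of 31 is a small number to read against that background. The median log2 difference of the collagens was -0.01 under AL and -0.00 under IF, and that of all genes tested 0.00 in both.

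In sham AL, Col4a1 lay between 52.2 and 85.3 FPKM with a median of 68.4 (n = 20), and in BCAS AL between 62.2 and 96.9 FPKM with a median of 78.1 (n = 19). Under IF it lay between 43.8 and 65.1 FPKM (median 60.2, n = 19) in sham and between 50.2 and 78.2 FPKM (median 68.6, n = 20) in BCAS. The arms overlapped, with the BCAS libraries shifted upward under each diet. The log2 difference was 0.20 ± 0.05 (SE, limma, adjusted p = 0.0133) under AL and 0.18 ± 0.05 (adjusted p = 0.0262) under IF, positive on 5 of 5 days in each. Without the 3 libraries rich in short-gene fragments, the AL difference was 0.17 (adjusted p = 0.0687). The IF call was lost without BCAS IF day 1 replicate 4 (adjusted p = 0.0509), day 7 replicate 4 (0.0505), day 21 replicate 2 (0.0561) or day 21 replicate 3 (0.05004), and without sham IF day 7 replicate 1 (0.0907) or day 21 replicate 3 (0.0534), and with no filter on low values (0.0611).

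The partner chain Col4a2 had the same direction without passing, at 0.17 ± 0.06 (adjusted p = 0.148) under AL and 0.16 ± 0.06 (adjusted p = 0.251) under IF. With the smooth muscle score as a covariate it passed under both, at 0.12 (adjusted p = 0.0154) and 0.12 (adjusted p = 0.00593). Col3a1 differed by 0.16 ± 0.05 (adjusted p = 0.115) and 0.18 ± 0.05 (adjusted p = 0.0721), and passed under IF with the smooth muscle score (adjusted p = 0.0397). Col1a1 differed by -0.03 with a 95% interval from -0.14 to 0.08 under AL and by 0.03 (-0.08 to 0.14) under IF. For Col1a2 the difference was 0.01 (-0.05 to 0.06) and 0.04 (-0.02 to 0.09). Of the rest, Col5a2 under IF came nearest to the threshold, at 0.15 ± 0.05 (adjusted p = 0.110).

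Some endothelial markers were higher too. Under AL 3 of 7 were higher after BCAS, namely Cldn5 (0.25), Egfl7 (0.26) and Pecam1 (0.25), and under IF 1 of 7, Pecam1 (0.23), all on the log2 scale. The summed endothelial markers ranged from 482 to 753 FPKM in sham AL and from 621 to 1030 FPKM in BCAS AL, and from 544 to 810 and 539 to 905 FPKM under IF. With the endothelial marker score as a covariate the Col4a1 difference was 0.19 (adjusted p = 0.0497) under AL and 0.18 (adjusted p = 0.0471) under IF. In limma 0 of 7 smooth muscle markers passed (0 under either diet at an unadjusted p under 0.05) and 0 of 8 fibroblast markers (0 under AL and 1 under IF unadjusted), and with the smooth muscle score as a covariate Col4a1 differed by 0.16 and 0.17.

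On single days no collagen passed between BCAS and sham in limma. In AL the background was 0.376% of all genes on day 1, 2.63% on day 7, 0.337% on day 14, 0% on day 21 and 0.357% on day 30. In IF it was 0.00637%, 0.153%, 0%, 0% and 0.0891% on the same days. At an unadjusted p under 0.05 there were 3, 3, 10, 0 and 3 collagens in AL and 3, 0, 1, 2 and 6 in IF. The background above is at an adjusted p, so these unadjusted counts cannot be read against it. By limma-voom on recovered fragments 0 were called on every day. In AL, 2 collagens passed when replicate 1 of sham day 7 was left out, and 1 passed without replicate 1 of BCAS day 7 or without the sham libraries day 1 replicate 2, day 7 replicate 4 or day 14 replicate 2.

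Day 14 in AL held the largest of these differences. Col4a1 measured 67.2, 85.3, 66.5 and 64.9 FPKM in the sham libraries and 93.2, 88.3, 96.9 and 90.8 FPKM after BCAS. The groups did not overlap, and the log2 difference was 0.38 ± 0.10 (adjusted p = 0.0630). Col4a2 measured 63.3, 80.2, 62.1 and 59.3 FPKM in sham and 84.9, 81.6, 89.5 and 84.7 FPKM after BCAS, also without overlap (0.37 ± 0.12, adjusted p = 0.202). In both genes sham AL day 14 replicate 2 was the high sham library. Col3a1 had means of 45.9 FPKM in sham and 61.3 FPKM after BCAS (0.41 ± 0.11, adjusted p = 0.0741).

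Fasting was compared within each surgery, with the same libraries as above. Comparing IF with AL over the 5 days, 7 of 31 passed in sham mice, 3 higher and 4 lower, and 7 of 31 in BCAS mice, again 3 higher and 4 lower. Of all genes tested, the share that passed was 23.7% in sham (11.8% higher, 11.9% lower) and 23.1% in BCAS (11.2% higher, 11.9% lower). The collagen median was -0.01 in sham and 0.01 in BCAS, against 0.01 and 0.00 for all genes tested. The sham and BCAS comparisons share no library, and 6 genes passed in both, 85.7% of each list. Of all genes tested, 2405 passed in both, which is 64.7% of those called in sham and 66.4% of those called in BCAS. Col4a1, Col5a3, Col3a1 and Col6a2 were lower with IF after either surgery, and Col9a2 and Col27a1 were higher. Each of these 6 had the same sign on at least 4 of 5 days in each surgery.

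Of the 8 fibrillar genes, Col3a1, Col5a3 and Col27a1 passed after both surgeries and Col1a2 in BCAS. The median log2 difference of the 8 was -0.07 in sham and -0.06 in BCAS. Col3a1 lay between 40.0 and 57.8 FPKM (median 46.0, n = 20) in sham AL and between 28.3 and 47.4 FPKM (median 42.9, n = 19) in sham IF. After BCAS it lay between 38.5 and 67.0 FPKM (median 54.0, n = 19) with AL and between 34.1 and 63.4 FPKM (median 46.5, n = 20) with IF. The arms overlapped, and the log2 difference was -0.17 ± 0.05 (adjusted p = 0.00869) in sham and -0.16 ± 0.05 (adjusted p = 0.0175) in BCAS.

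Col5a3, a minor type V chain, had the largest fitted difference of the 7 collagens called in BCAS. It lay between 1.15 and 2.06 FPKM (median 1.44, n = 20) in sham AL and between 0.905 and 1.46 FPKM (median 1.25, n = 19) in sham IF. In BCAS AL it lay between 1.01 and 2.33 FPKM (median 1.57, n = 19) and in BCAS IF between 0.911 and 1.60 FPKM (median 1.16, n = 20). The difference was -0.18 ± 0.04 (adjusted p = 0.00174) in sham and -0.25 ± 0.04 (adjusted p = 1.02e-05) in BCAS, on log2(FPKM + 1), a scale that understates changes of genes this low. With a pseudocount of 0.1 it was -0.29 and -0.40, and in limma-voom -0.33 and -0.45. Col27a1, a fibrillar collagen of cartilage, was higher with IF, at a mean of 1.30 against 1.11 FPKM in sham (0.12 ± 0.04, adjusted p = 0.0101) and 1.33 against 1.13 FPKM in BCAS (0.14 ± 0.04, adjusted p = 0.00396). With a pseudocount of 0.1 the Col27a1 difference was 0.21 and 0.23, and in limma-voom 0.21 and 0.25. Its sham call was lost when only the groups compared were fitted (adjusted p = 0.0522).

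The type I chains had opposite signs. Col1a2 was higher with IF in BCAS by 0.09 ± 0.03 (adjusted p = 0.0190), a call lost without BCAS AL day 1 replicate 3 (adjusted p = 0.0573) and in limma-voom (0.0549), and differed by 0.06 in sham (adjusted p = 0.154). In sham it passed without the 3 short-gene-rich libraries (0.08, adjusted p = 0.0388) and with the smooth muscle score (0.07, adjusted p = 0.0441). Col1a1 differed by -0.14 ± 0.06 (adjusted p = 0.0527) in sham and -0.09 ± 0.06 (adjusted p = 0.264) in BCAS. In sham Col1a1 passed with the fibroblast or the endothelial score as a covariate, and in 12 of 39 fits with 1 library left out. The ratio of Col1a1 to Col1a2 FPKM was 0.873 with an SD of 0.0892 in sham AL (n = 20) and 0.756 with an SD of 0.0674 in sham IF (n = 19). In BCAS it was 0.850 with an SD of 0.0878 for AL (n = 19) and 0.754 with an SD of 0.0863 for IF (n = 20). The mean ratio was lower with IF after either surgery, the ranges overlapped, and the ratio was not tested.

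Of the 7 basement membrane genes, Col4a1 was the 1 that passed, after either surgery. The log2 difference was -0.23 ± 0.05 (adjusted p = 0.000127) in sham and -0.24 ± 0.05 (adjusted p = 4.82e-05) in BCAS, negative on 5 of 5 days in each. The median of the 7 genes was 0.02 in sham and 0.01 in BCAS. Col4a2 differed by -0.09 ± 0.06 (adjusted p = 0.244) and -0.11 ± 0.06 (adjusted p = 0.167). The ratio of Col4a1 to Col4a2 FPKM was 1.04 with an SD of 0.106 in sham AL (n = 20) and 0.941 with an SD of 0.0491 in sham IF (n = 19). In BCAS it was 1.05 with an SD of 0.0553 for AL (n = 19) and 0.960 with an SD of 0.0405 for IF (n = 20). This ratio too was lower on average with IF, with overlapping ranges and no test. With the smooth muscle score as a covariate Col4a2 passed in both, at -0.15 in sham and -0.14 in BCAS. Col18a1 differed by 0.06 (95% interval -0.04 to 0.15) in sham and -0.02 (-0.12 to 0.07) in BCAS, and Col15a1 by -0.01 (-0.15 to 0.13) and 0.07 (-0.07 to 0.21).

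Of the 16 other collagens, 3 passed in sham and 2 in BCAS. Col9a2 lay between 30.6 and 58.2 FPKM (median 46.6, n = 20) in sham AL and between 44.3 and 70.2 FPKM (median 53.0, n = 19) in sham IF. In BCAS it lay between 34.0 and 54.8 FPKM (median 44.0, n = 19) with AL and between 36.0 and 59.4 FPKM (median 49.9, n = 20) with IF. The difference was 0.24 ± 0.06 (adjusted p = 0.00120) in sham and 0.17 ± 0.06 (adjusted p = 0.0268) in BCAS. The BCAS call was lost without BCAS IF day 14 replicate 4 or day 30 replicate 2 and with no filter on low values, with an adjusted p of at most 0.0630 among these.

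Col6a2, a chain of type VI microfibrils, was lower with IF by -0.13 ± 0.04 in sham (adjusted p = 0.0242) and -0.13 ± 0.04 in BCAS (adjusted p = 0.0257). The sham call was lost without sham IF day 7 replicate 2 (adjusted p = 0.0709), without the 3 short-gene-rich libraries and with no filter. The BCAS call was lost without BCAS AL day 1 replicate 1 or BCAS IF day 30 replicate 3 and with no filter. Its partner Col6a1 differed by -0.08 (adjusted p = 0.184) and -0.05 (adjusted p = 0.445). The transmembrane Col13a1 was higher in sham IF, at 12.4 ± 1.36 (SD, n = 19) against 10.9 ± 1.504 FPKM (n = 20) in sham AL (0.17 ± 0.05, adjusted p = 0.00419), and differed by 0.10 in BCAS (adjusted p = 0.132). Col8a1 differed by 0.13 in BCAS (adjusted p = 0.0637) and 0.10 in sham (adjusted p = 0.169), and passed in BCAS with the smooth muscle score (adjusted p = 0.0434). Col6a3 differed by 0.11 in BCAS (adjusted p = 0.145) and passed there without the 3 short-gene-rich libraries (0.14, adjusted p = 0.0352).

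Some markers of the cells of the wall also differed. Of 8 fibroblast markers, Clec3b and Lum were higher with IF after both surgeries and Slc6a13 was lower in BCAS. Their summed level ranged from 706 to 1115 FPKM in sham AL and from 795 to 1069 FPKM in sham IF, and from 747 to 1080 and 734 to 1134 FPKM in BCAS. Of 7 endothelial markers Egfl7 was higher in sham IF and Kdr lower in BCAS IF, and in limma 0 of 7 smooth muscle markers passed in either surgery (1 in sham and 0 in BCAS at an unadjusted p under 0.05). Cd163, 1 of 6 macrophage markers, was higher with IF in both, and Kcnj8 and Vtn, of 6 pericyte markers, were higher in sham IF. Of 5 cartilage and bone markers tested, Sox9 was lower in sham IF by 0.17 on the log2 scale. The mean score of these 5 markers was 1.62 with AL and 1.67 with IF in sham. In BCAS it was 1.67 with AL and 1.59 with IF, and the score itself was not tested. Each of the 6 collagens called in both surgeries kept its sign and its call with the fibroblast, endothelial or smooth muscle score as a covariate. With the fibroblast score 11 collagens passed in sham.

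**Figure D2:**
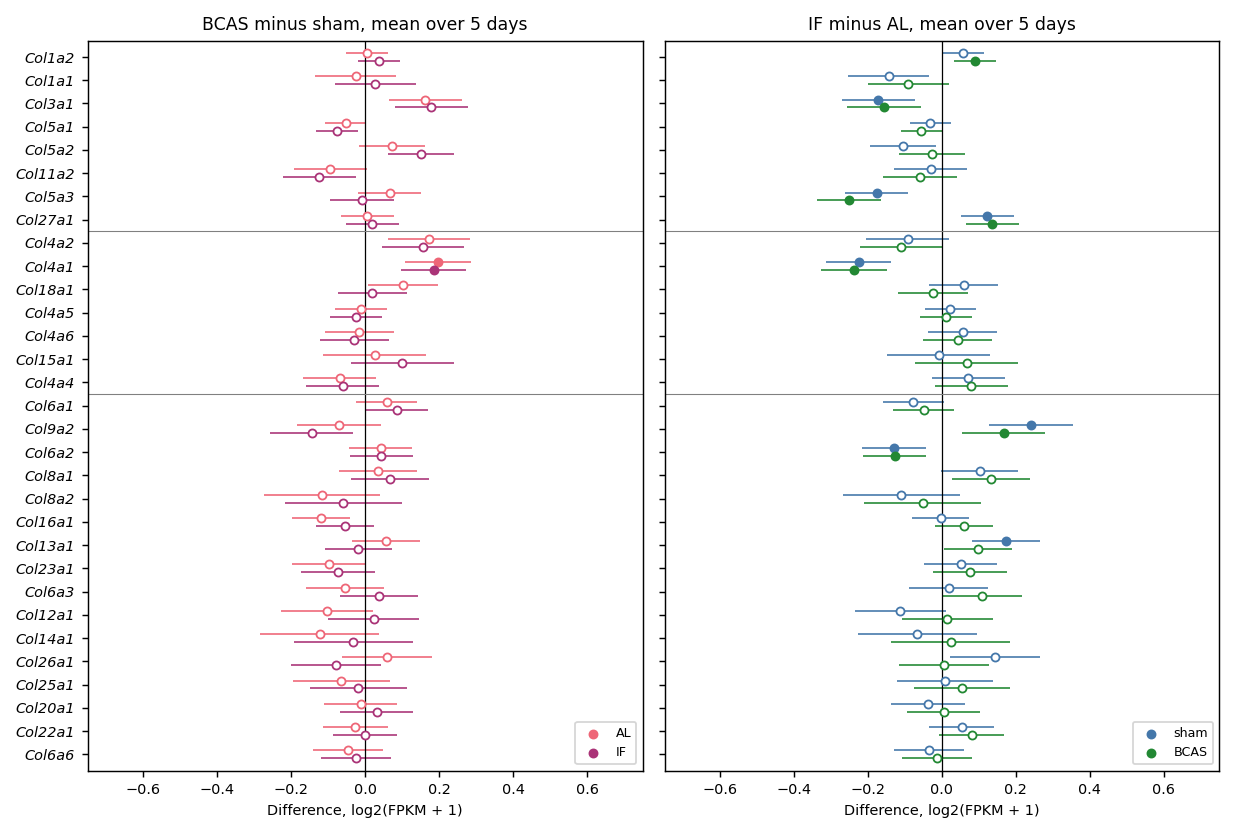
Difference of each collagen gene over the 5 days (log2 of FPKM + 1, with its 95% interval) in the 4 comparisons; filled symbols have an adjusted p under 0.05. Col4a1 is filled in all 4 comparisons, which share libraries, and the other filled genes are in those of IF with AL.

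On single days the fasting effect passed for 4 collagens in sham and 1 in BCAS. In sham 3.67% of all genes passed on day 1, 9.05% on day 7, 4.39% on day 14, 0.382% on day 21 and 4.82% on day 30. In BCAS the share was 4.37%, 2.25%, 5.67%, 0.802% and 1.35% on the same days. On day 21 in sham Col5a3 measured 1.77, 2.06, 1.88 and 1.73 FPKM with AL and 1.19, 0.917, 1.03 and 1.26 FPKM with IF. The groups did not overlap (-0.45 ± 0.10, adjusted p = 0.00800), and the call was lost without sham IF day 21 replicate 2 (adjusted p = 0.0761) and when only the groups compared were fitted (0.184). With a pseudocount of 0.1 the difference was -0.72, and in limma-voom -0.81.

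On day 14 in BCAS Col4a1 measured 93.2, 88.3, 96.9 and 90.8 FPKM with AL and 78.2, 63.8, 71.9 and 71.3 FPKM with IF. Every IF library was below every AL library (-0.37 ± 0.10, adjusted p = 0.0150), and the call was lost without BCAS IF day 14 replicate 2 (adjusted p = 0.0798). In sham, Col9a2 was higher with IF on day 1 (0.42 ± 0.13, adjusted p = 0.0460) and Col8a1 on day 14 (0.40 ± 0.12, adjusted p = 0.0325), both with overlap. Col11a2 was lower on day 7 (-0.37 ± 0.12, adjusted p = 0.0405) without overlap. These 3 calls were lost without any 1 of 6 of 8, 6 of 8 and 4 of 7 libraries. The Col11a2 call was also lost without the 3 short-gene-rich libraries (adjusted p = 0.0719), and its difference was -0.63 in limma-voom. The number of single-day calls was 7 without sham AL day 7 replicate 1 and 8 without sham IF day 7 replicate 1 in sham, and in BCAS 0 without BCAS IF day 14 replicate 2 and 2 without BCAS AL day 1 replicate 1 or BCAS IF day 14 replicate 4.

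Whether stenosis acted differently under fasting was tested as the interaction of surgery and diet. In limma 0 of 31 collagens passed, against 0.0127% of all genes. At an unadjusted p under 0.05 there were 0 as well, and limma-voom called 0. The smallest p was that of Col26a1 (-0.14 ± 0.09, adjusted p = 0.999). For Col4a1 the stenosis effect under IF minus that under AL was -0.01 on the log2 scale, with a 95% interval from -0.14 to 0.11. For Col3a1 it was 0.02, with an interval from -0.12 to 0.16. These intervals are for single genes and are not limits of detection. A call needed an adjusted p under 0.05 over all genes tested, so differences beyond these bounds could also go uncalled.

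Some collagens also differed between days within an arm. The F test over the 5 days passed for 5 of 31 in sham AL (17.3% of all genes), 0 in sham IF (1.88%), 5 in BCAS AL (4.48%) and 4 in BCAS IF (5.23%). In neither sham arm was the share of collagens above that of all genes. In sham IF 5 were under 0.05 without adjustment, limma-voom called 0, and the smallest p was that of Col8a1 (adjusted p = 0.165). In BCAS AL, Col4a1 had means of 87.0, 64.8, 92.3, 74.6 and 75.7 FPKM on days 1, 7, 14, 21 and 30 (F = 7.65, adjusted p = 0.00429). The low point was day 7 and the peaks were days 1 and 14. This call held without any 1 library and was lost with the smooth muscle score as a covariate (adjusted p = 0.136).

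Col3a1 was lowest on day 1 in both BCAS arms. In BCAS IF its means were 37.3, 46.0, 49.7, 55.4 and 48.7 FPKM on the 5 days (F = 6.69, adjusted p = 0.00945), and every day 1 library (34.1 to 39.9 FPKM) lay below every day 21 library (47.2 to 59.1 FPKM). This call was lost when only the groups compared were fitted (adjusted p = 0.122). In BCAS AL they were 42.4, 53.7, 61.3, 52.3 and 53.5 FPKM (F = 4.84, adjusted p = 0.0441), a call lost without any 1 of 9 of the 19 libraries. In sham AL, Col4a5 was lowest on day 1, with 11.5, 12.3, 12.997 and 10.9 FPKM, and highest on day 7, with 14.5, 18.8, 14.6 and 19.2 FPKM (F = 8.89, adjusted p = 0.00126). The 2 highest of these are the day 7 libraries rich in short-gene fragments, and without the short-gene-rich libraries Col4a5 was the 1 collagen still called in sham AL. When only the groups compared were fitted it was not called (adjusted p = 0.120), and its BCAS AL call was lost without the short-gene-rich libraries (adjusted p = 0.128).

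The other calls between days were Col1a2, Col5a1, Col13a1 and Col12a1 in sham AL, Col23a1, Col4a5 and Col13a1 in BCAS AL, and Col18a1, Col1a2 and Col11a2 in BCAS IF. With single libraries of the arm left out in turn, 4 of these calls were lost in most cases. They were Col13a1 (15 of 19) and Col4a5 (11 of 19) in BCAS AL, Col11a2 in BCAS IF (14 of 20) and Col12a1 in sham AL (13 of 20). The others were lost in 3 (Col18a1) to 9 (Col5a1) cases. Col18a1 in BCAS IF had its peak on day 1, at 76.4 ± 6.88 FPKM (SD, n = 4), against 55.0 to 63.3 FPKM on the later days. In sham AL the count was 1 without day 7 replicate 4 or day 30 replicate 3, 2 without day 1 replicate 1 or day 1 replicate 4, 3 without day 21 replicate 1, day 21 replicate 2 or day 30 replicate 4, and 11 without day 7 replicate 1. In BCAS AL it was 1 without day 7 replicate 1 or day 14 replicate 1 and 2 without day 1 replicate 3, day 7 replicate 2 or day 14 replicates 2, 3 or 4. It was 3 without day 1 replicate 1, day 7 replicate 3, day 21 replicates 1 or 2 or day 30 replicates 3 or 4. In BCAS IF it was 1 without day 1 replicate 1 or day 1 replicate 4, and 2 without day 1 replicate 2, day 7 replicate 1, day 7 replicate 3 or day 21 replicate 4.

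**Figure D3:**
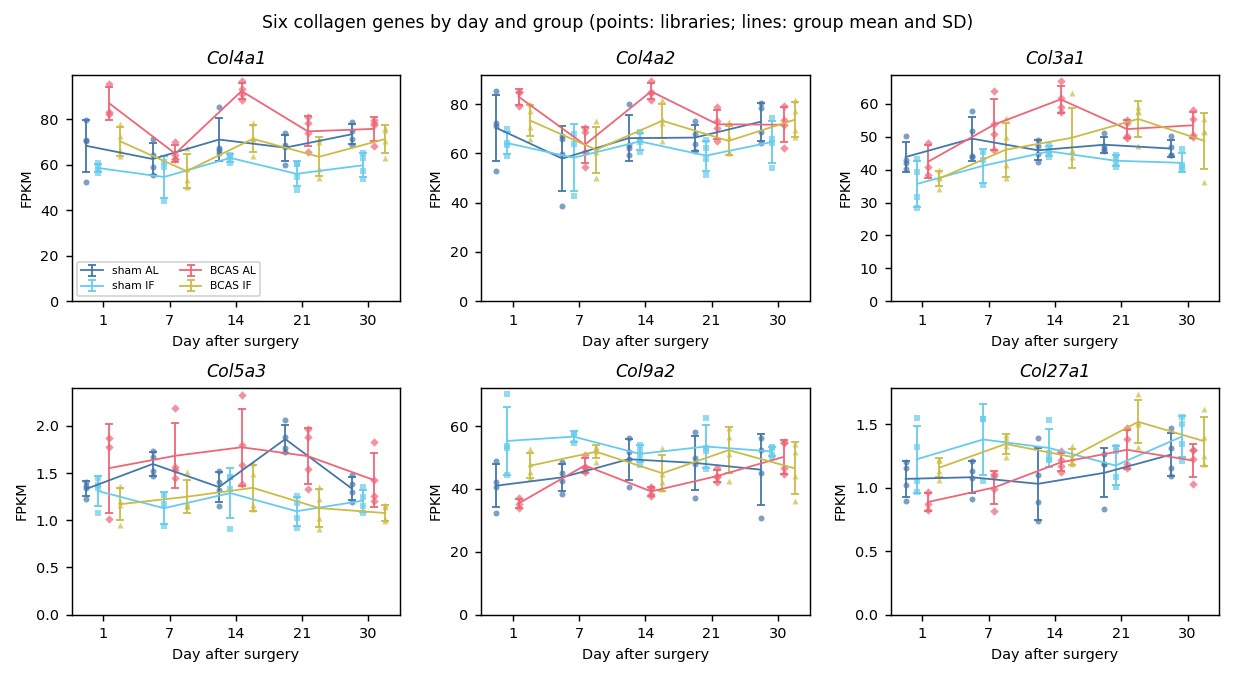
Level (FPKM) of Col4a1, Col4a2, Col3a1, Col5a3, Col9a2 and Col27a1 on days 1, 7, 14, 21 and 30 in the 4 arms; points are libraries, lines join group means and bars are the SD. Col4a1 in BCAS AL peaks at 87.0 FPKM on day 1 and 92.3 FPKM on day 14, and in BCAS IF its group mean is at most 71.3 FPKM on any day.

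Collagen chains need enzymes and chaperones to fold, leave the cell and cross-link, and genes of this handling from 5 lists were tested in the same fits. Of 55 genes listed, 49 were tested. BCAS changed 0 of them under either diet in limma, with 8 under AL and 7 under IF at an unadjusted p under 0.05 and 1 in each by limma-voom. With IF, 7 were higher and 14 lower in sham, and 8 were higher and 14 lower in BCAS. That is 21 and 22 of 49, beside the background of 23.7% and 23.1% of all genes given above.

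Several genes of folding and hydroxylation fell with IF. P4ha1, the catalytic subunit of prolyl 4-hydroxylase that stabilises the triple helix, lay between 23.1 and 42.1 FPKM (median 30.9, n = 20) in sham AL and between 12.1 and 33.6 FPKM (median 18.9, n = 19) in sham IF. In BCAS it lay between 23.4 and 38.6 FPKM (median 29.1, n = 19) with AL and between 14.7 and 25.7 FPKM (median 17.4, n = 20) with IF. The ranges overlapped in sham and in BCAS, with the IF medians below the lowest AL value, and the log2 difference was -0.64 ± 0.06 (adjusted p = 4.66e-12) in sham and -0.63 ± 0.06 (adjusted p = 7.40e-12) in BCAS. Serpinh1, the collagen-specific chaperone of the endoplasmic reticulum, fell from a mean of 264 to 192 FPKM in sham (-0.49 ± 0.07, adjusted p = 7.36e-08) and from 276 to 188 FPKM in BCAS (-0.58 ± 0.07, adjusted p = 6.45e-10). The lysyl hydroxylases Plod1 and Plod2 and the prolyl 3-hydroxylase P3h2 also fell after both surgeries. P3h2 was low, with arm means from 1.43 FPKM (BCAS IF) to 2.03 FPKM (sham AL). The calls of Plod1 and P3h2, and that of Plod2 in BCAS, were not followed under the alternatives or with single libraries left out. Fkbp10, a prolyl isomerase and collagen chaperone, rose from 23.6 to 27.1 FPKM in sham (0.19 ± 0.03, adjusted p = 1.83e-05) and from 23.4 to 28.4 FPKM in BCAS (0.26 ± 0.03, adjusted p = 1.17e-08). Of 17 genes tested in this group, 5 were lower and 1 higher in sham, and 7 lower and 2 higher in BCAS.

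Of 6 genes of secretion and its transcription, 5 were lower in sham and 4 in BCAS and none was higher. Creb3l1, a membrane-bound transcription factor that acts on type I collagen in bone, fell from 13.6 ± 1.76 (SD, n = 20) to 8.997 ± 2.15 FPKM (n = 19) in sham (-0.56 ± 0.06, adjusted p = 7.02e-10). In BCAS it fell from 14.6 ± 1.72 (n = 19) to 8.56 ± 2.31 FPKM (n = 20), by -0.75 ± 0.06 (adjusted p = 3.40e-14). Its relative Creb3l2 and the vesicle coat genes Sec23a and Sec24d, which carry procollagen out of the endoplasmic reticulum, were lower after both surgeries. The Sec24d call in sham was not followed under the alternatives. Mia2 was lower in sham by 0.17 on the log2 scale.

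Cross-linking and processing split. Lox, which cross-links collagen and elastin, fell from 31.5 to 22.3 FPKM in sham (-0.47 ± 0.06, adjusted p = 3.48e-09) and from 29.8 to 22.3 FPKM in BCAS (-0.44 ± 0.06, adjusted p = 1.29e-08), and its relative Loxl2 also fell after both. The propeptide proteinases Bmp1 and Adamts14 rose after both surgeries, and Adamts2 in BCAS. The Adamts14 call in BCAS was not followed under the alternatives. Of 9 genes tested here, 2 were lower in each surgery, and 2 were higher in sham and 3 in BCAS. Of 8 fibril-binding genes, Tnxb (0.22 in sham, 0.31 in BCAS) and Lum (0.20 in each) were higher and none was lower. Of 9 receptors, Ddr1 was higher and Itga1 lower in both, and Lair1 was higher and Ddr2 lower in sham. The share called was near that of all genes (23.7% in sham, 23.1% in BCAS) for the fibril-binding genes, and in BCAS for the receptors. Lum is also among the fibroblast markers above, so it is not a separate observation. With each of the 39 libraries of a comparison left out in turn, the Itga1 call was lost 18 times in BCAS and 2 times in sham. The Lair1 and Ddr2 calls in sham were lost 12 and 4 times, and the Bmp1 call in BCAS 1 time. Without the 3 short-gene-rich libraries Bmp1 in BCAS (adjusted p = 0.0563) and Itga1, Ddr2 and Lair1 in sham were not called either.

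**Figure D4:**
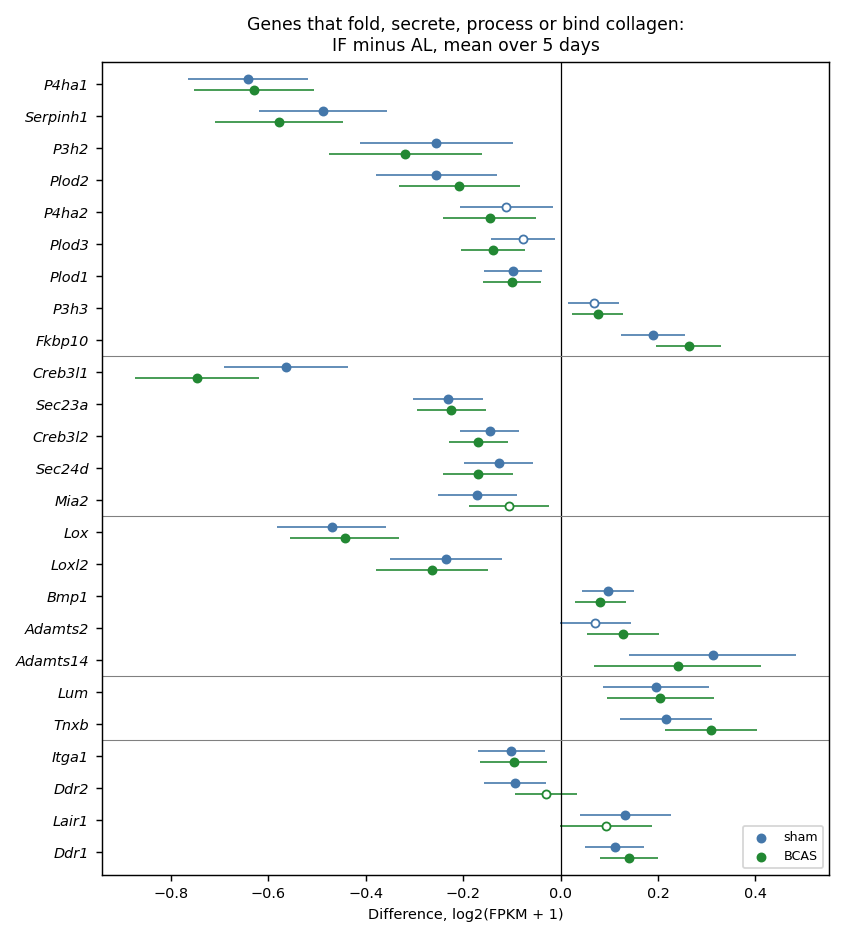
Difference between IF and AL over the 5 days (log2 of FPKM + 1, with its 95% interval) for the collagen-handling genes past an adjusted p of 0.05 in at least 1 surgery, by function; filled symbols passed. P4ha1, Serpinh1, Creb3l1 and Lox lie furthest to the left, between -0.44 and -0.75, while Fkbp10 and Tnxb lie to the right.

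Some chains that assemble together varied together from library to library within groups. Each value was taken as the deviation of log2(FPKM + 1) from its group mean, and 21 relations were computed over 78 libraries with permutation tests within groups. Col4a1 and Col4a2 were related most closely (r = 0.868, rho = 0.874, permutation adjusted p = 5.25e-05 for each, from the smallest p that 100000 resamples can give, 1e-05), and without the 2 farthest libraries r was 0.841. Within the arms r was 0.859 in sham AL, 0.931 in sham IF, 0.748 in BCAS AL and 0.917 in BCAS IF. Col6a1 and Col6a2 followed (r = 0.862, rho = 0.845), then Col1a1 and Col1a2 (r = 0.683, rho = 0.599), with the same adjusted p. The r of the type I pair was 0.593 without the 2 farthest libraries, and within arms it lay between 0.417 and 0.889. Col5a1 and Col5a2 were less close (r = 0.410, rho = 0.422, permutation adjusted p = 0.00623 and 0.00425).

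For other partner chains no relation passed 0.05. Col6a1 with Col6a3 had r = 0.129 (rho = -0.0216, permutation adjusted p = 0.502 and 0.988), and Col8a1 with Col8a2 had r = -0.236 (rho = -0.200, permutation adjusted p = 0.128 and 0.204). Across types, Col1a1 was related to Col3a1 (r = 0.596, rho = 0.555, permutation adjusted p = 0.000105 and 0.00021) and had r = -0.155 with Col4a1 (rho = -0.154, permutation adjusted p = 0.332 and 0.325).

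Of the collagens, Col1a1, Col3a1 and Col4a1 were compared with marker scores, and whether their relations differed from each other was not tested. Col1a1 was related to the fibroblast score (r = 0.557, rho = 0.496, permutation adjusted p = 8.40e-05 and 0.00028) and inversely to the smooth muscle score (r = -0.589, rho = -0.456, permutation adjusted p = 0.00021 and 0.00099), where r was -0.450 without the 2 farthest libraries. Within arms the latter ran from -0.793 in sham AL to -0.149 in sham IF. Col4a1 was related to the smooth muscle score (r = 0.656, rho = 0.663, permutation adjusted p = 5.25e-05 for each), with an r of 0.443 to 0.897 within arms. Col3a1 was related to the fibroblast score (r = 0.425, rho = 0.376, permutation adjusted p = 0.00623 and 0.0125). The endothelial and brain scores showed no relation past 0.05 with Col1a1, Col3a1 or Col4a1. Values of 1 library share its depth scaling, and what that adds to these relations was not tested.

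**Figure D5:**
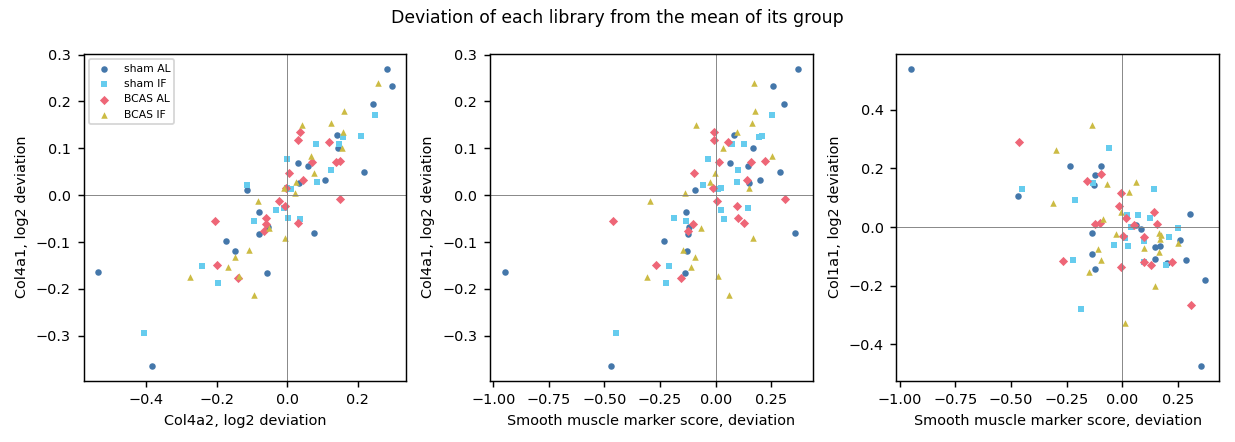
Deviation from the group mean (log2 of FPKM + 1) in the 78 libraries for Col4a1 against Col4a2, Col4a1 against the smooth muscle score and Col1a1 against the smooth muscle score; colours are the arms. The first 2 panels slope upward (r = 0.868 and 0.656) and the last slopes downward (r = -0.589).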

How the data were processed

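Per the labels' protocols, total RNA was isolated with a Qiagen RNeasy kit and made into sequencing libraries by Novogene. The authors deposited 1 table of FPKM values for 54532 genes, per the file headers. The submitters' processing notes name DESeq 1.10.1 and do not say what it was used for. The labels place libraries on day 7 by group alone, since the treatment text leaves that day out. The aligner, the counter and the genome build are not given in the sources used here. Positions are on GRCm38, where 44 of 44 collagen genes had the same coordinates in GENCODE M21.

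After multiplying by gene length, 100% of values under 1000 fragments in each library were whole steps of the library's smallest unit, within 0.05, and this gave 14601572 to 25944175 fragments per library. No libraries held identical values. Tests used limma 3.58.1 (R 4.3.3, trend and robust options) on log2(FPKM + 1), with a mean for each of 20 groups, over the 15707 genes that reached 1 FPKM in 3 or more libraries. P-values were two-sided, adjusted by Benjamini-Hochberg over all these genes and compared with 0.05, and errors are standard errors unless marked SD. Counts at an unadjusted p are given without the share of all genes at that threshold, and no result rests on them. A marker score is the mean log2(FPKM + 1) of a cell type's list. The steps were tested on simulated data.

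The members and gene lists were chosen with earlier results of these data known. Named genes are those past the threshold, a panel of 13 collagens, the 3 most abundant of each class, those nearest to the expression minimum, the smallest p where none passed, and up to 4 handling genes per list and comparison; other handling genes and markers past the threshold were named after their values were seen. The labels give no replicate numbers shared between groups, so no libraries were paired. Alternatives were a pseudocount of 0.1, no filter, limma-voom on recovered fragments, median-ratio scaling, only the groups compared, marker scores as covariates, each library left out, and the 3 libraries richest in short-gene fragments left out. The endothelial, smooth muscle and pituitary covariates were added after seeing the data. Single handling genes were followed under the alternatives for up to 4 genes per list and comparison, those with the smallest p.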

Additional observations from a re-analysis of the deposited data

Results flagged for a closer look

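Dixon's criterion at the 95% level was applied to 10 collagen genes in each of the 18 groups of 4 libraries, 180 tests in all, of which chance passes about 1 in 20, or 9. It was passed 15 times, by 13 different libraries, as follows, in FPKM. Col13a1 was low in BCAS IF day 7 replicate 3 (9.94, against 10.9 to 11.1 in the others) and high in sham IF day 30 replicate 3 (14.0, against 12.96 to 13.13). Col1a1 was high in BCAS IF day 7 replicate 3 (68.4, against 62.7 to 63.6) and in sham IF day 14 replicate 1 (61.2, against 52.6 to 53.6), and low in sham IF day 21 replicate 3 (55.3, against 61.3 to 61.7). Col1a2 was high in BCAS IF day 7 replicate 2 (88.8, against 80.4 to 81.0). Col3a1 was high in BCAS IF day 14 replicate 4 (63.4, against 43.9 to 45.8) and low in BCAS IF day 21 replicate 1 (47.2, against 57.4 to 59.1). Col4a1 was high in sham AL day 14 replicate 2 (85.3, against 64.9 to 67.2). Col5a3 was high in BCAS AL day 7 replicate 1 (2.19, against 1.45 to 1.57) and in BCAS IF day 7 replicate 1 (1.51, against 1.15 to 1.19). Col6a2 was low in BCAS AL day 30 replicate 4 (35.3, with the others at 38.7) and in sham AL day 1 replicate 3 (31.1, against 38.9 to 39.6). It was high in BCAS IF day 14 replicate 4 (36.9, against 29.0 to 30.2) and in sham AL day 7 replicate 4 (45.7, against 35.1 to 36.8), the library that stood apart.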

How the results depend on the processing

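No paired analysis was possible because the labels give no replicate numbers that groups share. The 6 collagens called with IF after both surgeries kept their direction under every alternative; their lost calls are in the report. Counts of collagens that moved by over 1.5 times follow, and the cause was not tested. For BCAS against sham over days, the AL count of 1 was 2 with the endothelial, fibroblast or smooth muscle score as a covariate and 0 without the 3 libraries richest in short-gene fragments, and the IF count of 1 was 0 with no filter and 3 with the smooth muscle score. On single days in AL it was 1 with the endothelial, 2 with the fibroblast and 1 with the smooth muscle score, from 0. For IF against AL over days in sham, 7 became 11 with the fibroblast score. On single days in sham, 4 became 1 with no filter, 0 with only the groups compared, and 8, 2 and 7 with the fibroblast, endothelial and smooth muscle scores. On single days in BCAS, 1 became 3 in limma-voom, 2 with only the groups compared, 4 with the fibroblast and 5 with the smooth muscle score. Between days, sham AL went from 5 to 1 with no filter, 3 in limma-voom, 0 with only the groups compared, 1 with the brain, 3 with the fibroblast and 1 with the smooth muscle score, and 1 without the 3 libraries. Sham IF went from 0 to 1 with the smooth muscle score, BCAS AL from 5 to 2 with no filter, 3 in limma-voom and 1 with the smooth muscle score, and BCAS IF from 4 to 2 with no filter or only the groups compared. Handling genes under BCAS went from 0 to 1 in limma-voom under each diet. With the fibroblast score 1 was called under each diet, with the endothelial score 1 under AL, with the smooth muscle score 1 under AL and 2 under IF, and without the 3 libraries 1 under IF.

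Leaving out 1 library, collagen counts ranged from 1 to 1 (BCAS, AL, over days), 0 to 2 (AL, single days), 0 to 3 (IF, over days), 0 to 0 (IF, single days), 6 to 9 (IF in sham, over days), 3 to 8 (single days), 6 to 8 (IF in BCAS, over days), 0 to 2 (single days) and 0 to 0 (interaction). Between days they ranged from 1 to 11 in sham AL, 0 to 0 in sham IF, 1 to 5 in BCAS AL and 1 to 4 in BCAS IF. Handling counts ranged from 0 to 1 under BCAS with either diet, 19 to 24 for IF in sham and 20 to 25 for IF in BCAS.

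Only uncalled log2 differences changed sign. Under BCAS in AL these were Col1a2 (-0.00718, fibroblast score), Col15a1 (-0.0326, fibroblast, and -0.00815, endothelial), Col8a1 (-0.00211, smooth muscle) and Col1a1 (0.0117, smooth muscle, and 0.00504 without the 3 libraries). Under BCAS in IF it was Col18a1 (-0.00520, smooth muscle). With IF in sham these were Col6a3 (-0.0184, fibroblast) and Col15a1 (0.00525, pituitary, and 0.0306 without the 3 libraries). Leaving out 1 library, the ranges were -0.00781 to 0.0199 for Col1a2, -0.0574 to 0.0100 for Col1a1 and -0.00232 to 0.0555 for Col15a1 under BCAS in AL, -0.0188 to 0.0437 for Col18a1 under BCAS in IF, and -0.00881 to 0.0448 for Col6a3 and -0.0343 to 0.0189 for Col15a1 with IF in sham. The endothelial, smooth muscle and pituitary scores were chosen after seeing the data. Single days rest on 3 or 4 libraries a group, and members near 1 FPKM on the fewest fragments.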
